A study of Homo sapiens with 17 samples.

Results

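The genes of 10 mesendoderm regulators were examined in CUT&Tag summit lists from the H1 line, which is a long-established pluripotent line. They are TBXT, EOMES, MIXL1, GSC, LHX1, GATA4, GATA6, SOX17, FOXA2 and CER1, and they were taken by name as 10 of the 20037 protein-coding genes of the RefSeq table for GRCh38.p14. For each gene, all summits from 20 kb below to 20 kb above the annotated gene were collected in all 17 deposited lists, which gave 574 H3K4me1, 42 H3K27ac, 45 HNRNPU and 99 POLIIS2P summits. In CUT&Tag an antibody on chromatin guides a transposase that tags the DNA beside it, and a summit is the base of highest signal within a called peak. Puromycin-selected cells had received lentiviral shRNA against HNRNPU, as shHNRNPU#1 or shHNRNPU#2, or against luciferase as the control, named shLUC. HNRNPU itself, an abundant nuclear RNA-binding protein, was profiled in untransfected cells. The H3K4me1 and H3K27ac antibodies each had 4 shHNRNPU libraries (2 repeats of each shRNA) and 2 shLUC libraries, HNRNPU had 2 libraries, and POLIIS2P had 1 shHNRNPU#1 and 2 shLUC libraries. The labels do not say whether repeats came from separate cultures, so the p-values below measure only the spread between these libraries, which may be technical.

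Mesendoderm is the progenitor state of the primitive streak from which mesoderm and definitive endoderm arise. Nodal and WNT signals induce T-box and homeobox factors there, and GATA, SOX and forkhead factors then act in the endoderm. In pluripotent cells such developmental genes are usually silent or weakly transcribed and can be induced within days. H3K4me1 is a histone modification of enhancers whether or not they are active, H3K27ac marks active enhancers and promoters, and an enhancer with the first mark and not the second is commonly called primed or poised. POLIIS2P is the name in the labels for the remaining antibody, which the antibody list in the labels leaves out, as it does H3K4me1.

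Titles and peak names disagreed for 4 shLUC libraries, each titled for one histone mark while its peaks were named for the other. The antibody was taken from the peak names here, and values of single genes and sites follow them throughout. The main counts of genes and sites, the medians of lists and the calls between conditions are also given with the antibody of the titles, and where no shLUC library is needed also in the shHNRNPU libraries alone, a choice made after seeing the data. Read depth is unknown. The lists held 147145 to 214333 summits for H3K4me1, 40487 to 90914 for H3K27ac, 34649 and 35526 for HNRNPU and 79949 to 87456 for POLIIS2P. The shHNRNPU#1 lists for H3K27ac were the shortest of that antibody, with 51655 and 40487 summits. The shLUC lists with H3K4me1 peak names held 179137 and 181357 summits, inside the range of the shHNRNPU lists for H3K4me1. The shLUC lists with H3K27ac peak names held 62449 and 90914, where the shHNRNPU lists for H3K27ac held 40487 to 85142. Because the score of a summit depends on depth, each summit was given its percentile within its own list (100 is the highest score), and a gene was given the highest percentile in its window, or 0 where it had no summit. At the HNRNPU gene, the target of the shRNAs, the highest H3K4me1 percentile was 98.6 to 99.8 and the highest POLIIS2P percentile 99.87 to 99.94. These assays measure neither its transcript nor its protein and are no check of the knockdown. The pluripotency genes fixed as markers of the cells, among them POU5F1, SOX2 and NANOG, had an H3K4me1 summit in all 6 libraries for 10 of 10 genes and an H3K27ac summit in all 6 for 8 of 10.

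RefSeq promoter sequence was at hand for 6 of the 10 genes. The 250 bases upstream of the annotated start are shown for 3 of them, because summits lay inside them and because they span the range of CpG content among these genes. They are written 5′ to 3′ on the strand of the gene, in the GRCh38.p14 build, with each CG dinucleotide in capitals.
MIXL1: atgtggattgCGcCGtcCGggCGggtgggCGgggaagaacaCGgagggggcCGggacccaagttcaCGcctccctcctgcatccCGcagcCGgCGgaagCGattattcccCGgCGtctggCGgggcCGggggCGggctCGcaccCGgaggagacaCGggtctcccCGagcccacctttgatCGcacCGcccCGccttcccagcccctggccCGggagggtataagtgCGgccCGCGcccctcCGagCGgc
GSC: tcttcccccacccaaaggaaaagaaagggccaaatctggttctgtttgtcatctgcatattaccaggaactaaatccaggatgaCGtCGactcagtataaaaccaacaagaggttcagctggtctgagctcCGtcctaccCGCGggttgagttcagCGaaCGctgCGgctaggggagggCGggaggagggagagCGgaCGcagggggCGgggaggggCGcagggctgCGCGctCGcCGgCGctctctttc
CER1: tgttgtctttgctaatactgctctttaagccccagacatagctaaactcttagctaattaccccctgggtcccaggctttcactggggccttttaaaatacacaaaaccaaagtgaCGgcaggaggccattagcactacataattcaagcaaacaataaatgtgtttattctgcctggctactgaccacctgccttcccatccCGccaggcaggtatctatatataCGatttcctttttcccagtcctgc

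The MIXL1 sequence lies on the plus strand at chr1:226223414-226223663 and holds 30 CG. The GSC sequence lies on the minus strand at chr14:94770114-94770363 and holds 18 CG, and that of CER1 lies on the minus strand at chr9:14722734-14722983 and holds 3 CG. Base 178 of the MIXL1 sequence was an HNRNPU summit of repeat 1, and base 220 an H3K27ac summit of shHNRNPU#2 repeat 1. Base 171 of the GSC sequence was a POLIIS2P summit of shLUC repeat 1. Base 142 and base 223 of it were H3K4me1 summits, of shHNRNPU#1 repeat 1 and shLUC repeat 1. In CER1, base 80 was an HNRNPU summit of repeat 1 and base 215 a POLIIS2P summit of shLUC repeat 2. Over windows from 250 bases before to 50 after the start, the CER1 promoter had fewer CG dinucleotides than most promoters (10.3% of 22197 promoters had fewer), while 85.5% had fewer than MIXL1. The letters TATAAA, on either strand, were present in the windows of EOMES, GSC and 1 of the 2 TBXT starts, so in 3 of 7 windows against 9.47% of all promoters. The letters CTTTGAA, part of many TCF/LEF sites, were in the other TBXT window, and in 3.61% of all promoters. The letters searched for the other factor families had no match in these windows on either strand. They were AGGTGTGA for T-box factors, held by 0.928% of all promoters, AGATAA for GATA factors, held by 7.90%, and TGTTTAC for forkhead factors, held by 2.85%. Only these exact letters were searched, so other forms of such sites may be present.

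By peak names, H3K4me1 was present at every gene. An H3K4me1 summit lay in the window of 10 of 10 genes in all 6 libraries, against 87.5% of all protein-coding genes. With the antibody of the titles this was 3 of 10 against 78.8%, and in the 4 shHNRNPU libraries alone, whose names agree, 10 of 10 against 88.3%. In order of the mean over 6 libraries, the highest percentile was 98.0 ± 0.870 (SD, n = 6) at LHX1, 97.5 ± 1.26 at TBXT, 97.1 ± 1.61 at GATA4, 92.3 ± 4.41 at EOMES, 92.2 ± 4.65 at FOXA2, 86.8 ± 6.34 at GATA6, 83.5 ± 2.94 at SOX17, 76.9 ± 12.4 at MIXL1, 70.8 ± 11.8 at GSC and 66.7 ± 8.53 at CER1. Ranges overlapped between all 9 pairs of neighbours in this order, so only genes further apart in it are separated by their libraries. The window of GATA4 spans 123068 bp and those of the other genes 41891 to 72940 bp, and a longer window can hold more summits. The 10 genes had a median length of 6084.5 bp, beside 24115 bp for all protein-coding genes. The shares and medians of all genes, here and below, were not adjusted for that.

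The T-box genes TBXT (Brachyury, a factor of the primitive streak and notochord) and EOMES (a factor of early mesendoderm) carried strong H3K4me1 summits outside the gene. At TBXT the highest percentile was 98.5 and 95.6 in shHNRNPU#1, 98.1 and 98.9 in shHNRNPU#2 and 96.7 and 97.1 in shLUC libraries. All 6 of these summits fell into one site, at chr6:166173452-166173481, 4.81 kb upstream of the gene. No H3K27ac, HNRNPU or POLIIS2P summit of any library was within 500 bp of that site. At EOMES the values were 94.8 and 85.5, 94.9 and 97.5, and 89.0 and 92.3. Its best summit was not at one place, and 5 EOMES sites were present in all 6 libraries, among them one 3.71 kb downstream of the gene (chr3:27712216-27712264) and one 0.653 kb downstream (chr3:27715298-27715302). Here and below, a site is a set of summits of one antibody chained at 250 bp.

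Of the homeobox genes, LHX1 (a LIM-domain factor of the head organizer) was high in every library, with 98.0 and 97.0 in shHNRNPU#1, 98.7 and 96.9 in shHNRNPU#2 and 98.6 and 99.0 in shLUC libraries. The summit was the same in all 6, at chr17:36918450-36918495, 18.3 kb below the lower end of LHX1. MIXL1 (a factor of the primitive streak) reached 75.0 and 54.4, 85.2 and 90.0, and 76.0 and 80.8. GSC (goosecoid, the organizer homeobox factor) reached 50.7 and 66.1, 79.1 and 78.6, and 68.1 and 82.3. At both genes the lowest library was a shHNRNPU#1 repeat, the ranges of the groups overlapped, and the best summit moved between sites from library to library.

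Among the endoderm factors, the zinc-finger gene GATA4 reached 98.5 and 95.2 in shHNRNPU#1, 95.1 and 97.9 in shHNRNPU#2 and 98.7 and 97.3 in shLUC libraries, at chr8:11736522-11736571 within the gene in all 6. GATA6 reached 86.0 and 92.0, 80.5 and 79.3, and 95.6 and 87.2, at chr18:22185394-22185476 within the gene in all 6. SOX17, an HMG-box factor of definitive endoderm, stayed between 78.4 and 87.4, and in 3 libraries its best summit was at an end of LOC100129098. FOXA2, a forkhead factor that opens chromatin of endoderm genes, stayed between 83.8 and 96.0. CER1, a secreted antagonist of Nodal, BMP and WNT, had the lowest mean of the 10 genes, though not the lowest value in every library. It reached 64.8 and 55.0, 61.4 and 71.3, and 67.8 and 79.9. Its window held 11 H3K4me1 summits over 6 libraries, and that of GATA4 held 138.

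**Figure D1:**
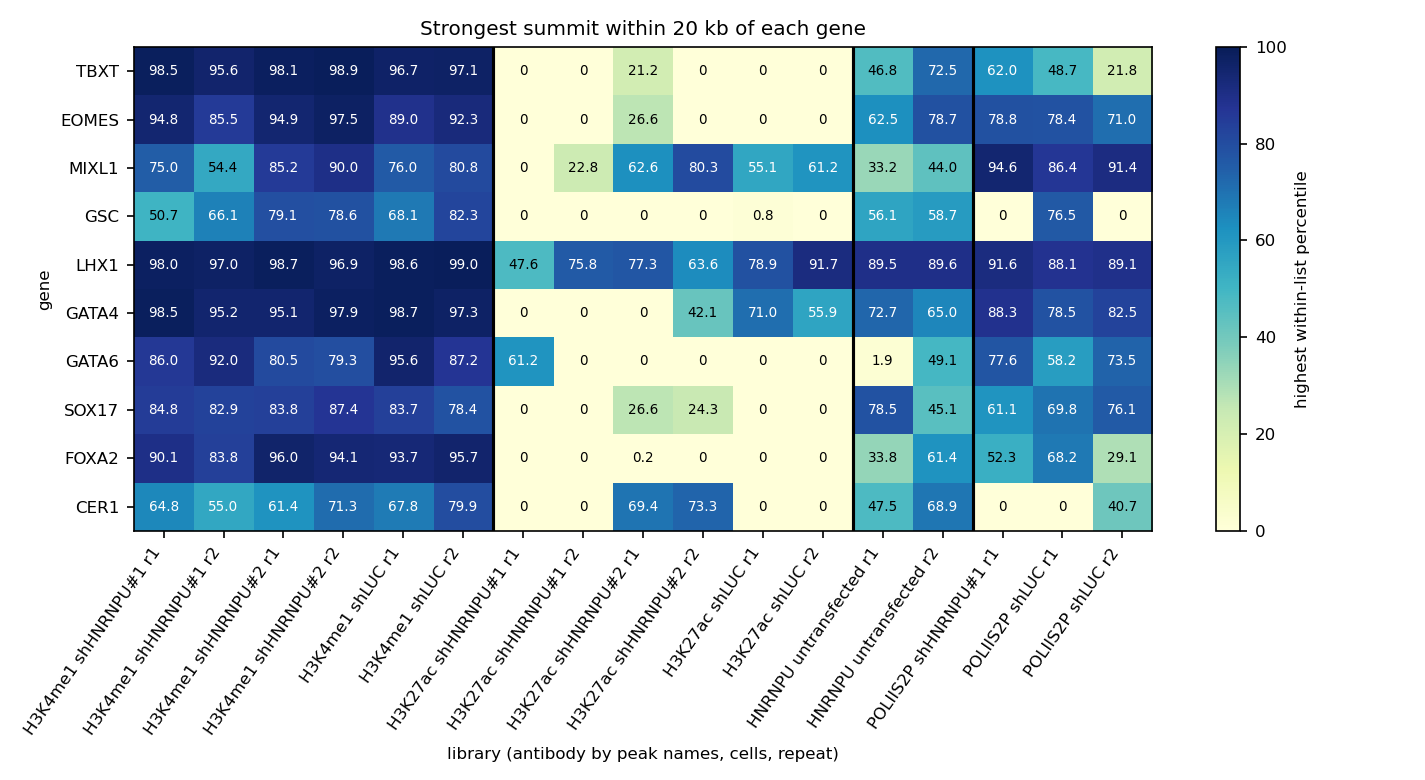
Highest within-list percentile of any summit within 20 kb of each gene (rows) in each of the 17 libraries (columns, antibody by peak names), with 0 for no summit. H3K4me1 values lie between 50.7 and 99.0, and 23 of the 60 H3K27ac cells hold a summit.

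By peak names, H3K27ac was mostly absent from the same windows. Only LHX1 had an H3K27ac summit in all 6 libraries, which is 1 of 10 genes against 69.7% of all protein-coding genes. By title it was also 1 of 10, against 69.9%, and in the shHNRNPU libraries alone 1 of 10 against 71.1%. Between 2 and 7 of the 10 genes had a summit in any 1 library, while 75.9% to 87.9% of all genes did. The 2 shHNRNPU#1 libraries had 2 genes each, the shHNRNPU#2 libraries 7 and 5, and the shLUC libraries 4 and 3. Of the 25 H3K27ac sites, 15 were present in 1 library and 1 in all 6, whereas 50 of 150 H3K4me1 sites were present in all 6. Over all sites of the genome these shares of sites present in all 6 were 7.66% for H3K27ac and 25.4% for H3K4me1. By title 1 of 127 H3K27ac and 2 of 140 H3K4me1 sites were in all 6, against 3.53% and 5.51% genome-wide. In the shHNRNPU libraries alone 1 of 22 and 55 of 137 were in all 4, against 11.3% and 31.6%.

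The one constant H3K27ac site was at the end of a neighbouring gene. It lay at chr17:36948978-36949055, within 1 kb of an end of AATF and 4.40 kb above LHX1, with percentiles of 47.6 and 12.9 in shHNRNPU#1, 77.3 and 63.6 in shHNRNPU#2 and 78.9 and 91.7 in shLUC libraries. Without summits within 1 kb of ends of other protein-coding genes, the mean highest H3K27ac percentile of LHX1 was 30.1 in place of 72.5. At GATA4, the summits of shHNRNPU#2 repeat 2 (42.1), shLUC repeat 1 (71.0) and shLUC repeat 2 (26.2) at chr8:11769730-11769854 lay within 1 kb of an end of NEIL2. The remaining GATA4 summits of this antibody lay within the gene, in shHNRNPU#2 repeat 2 at up to 35.1 and in shLUC repeat 2 at up to 55.9.

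At the other 8 genes, H3K27ac summits were found in a minority of libraries, except at MIXL1. MIXL1 had a summit in 5 of 6 libraries, at 0 and 22.8 in shHNRNPU#1, 62.6 and 80.3 in shHNRNPU#2 and 55.1 and 61.2 in shLUC, but at 7 different sites. CER1 had a summit in both shHNRNPU#2 libraries, at 69.4 and 73.3, and in none of the other 4. These summits were at chr9:14704382-14704385, 12.9 kb downstream of the gene, and no H3K4me1 summit of any library lay within 500 bp of them. SOX17 likewise had summits only in the shHNRNPU#2 libraries, at 26.6 and 24.3, at 320 and 193 bp inside the lower end of the gene. GATA6 had 61.2 in shHNRNPU#1 repeat 1, at its strongest H3K4me1 site, and no summit in the other libraries. TBXT and EOMES had 21.2 and 26.6 in shHNRNPU#2 repeat 1 alone, and GSC and FOXA2 did not exceed 0.827 in any library. The H3K27ac summits of TBXT, EOMES and SOX17 had low scores, of 2.97 to 3.93 where the lists begin at 2.00.

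**Figure D2:**
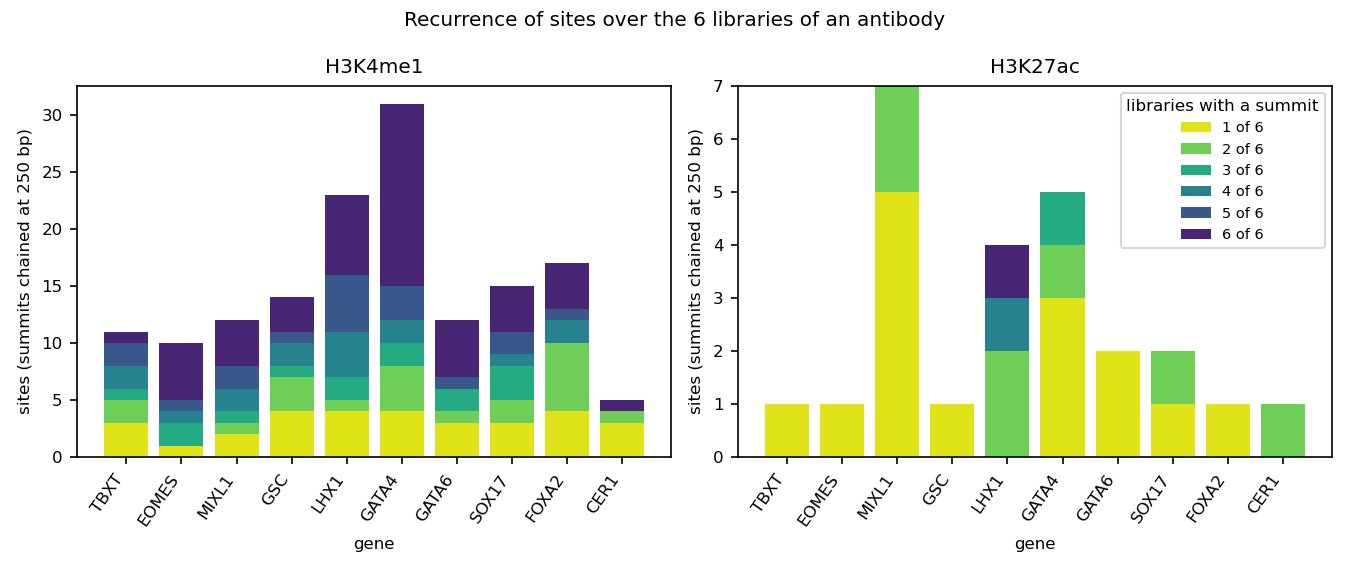
Number of sites in the window of each gene by the number of libraries of the antibody that hold a summit there, for H3K4me1 (left) and H3K27ac (right), with different vertical scales. Of 150 H3K4me1 sites 50 are present in all 6 libraries, and of 25 H3K27ac sites 1 is.

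Each pair of libraries was compared to describe how the marks stood to each other. At 8 of the 10 genes every H3K4me1 percentile was above every H3K27ac percentile, against 29.4% of all protein-coding genes. The exceptions were MIXL1 and CER1. The shHNRNPU libraries alone, whose titles and peak names agree, gave the same count of 8 of 10 against 36.9% of all genes. With the antibody of the titles the count was 0 of 10 against 0.105%. Without ends of other genes it was 8 of 10 against 32.4%. The stricter pattern, H3K4me1 in all 6 libraries and H3K27ac in none, held for 0 of the 10 genes, against 1.64% of all genes, and for 0 without ends of other genes, against 2.17%. H3K27ac lists were shorter than H3K4me1 lists, so lists of equal length were compared too. Among the 20000 strongest summits of each library, 7 of the 10 genes had no H3K27ac summit in any library, against 20.2% of all genes, and 3 had an H3K4me1 summit in all 6, against 34.2%. On that equal footing 3 of the 7 genes tested (TBXT, LHX1 and GATA4) had H3K4me1 above H3K27ac in every pair, against 11.9%, and TBXT alone had the stricter pattern, against 2.21%. In the shHNRNPU libraries alone the count was again 3 of 7, against 15.5%, and by title it was 0 of 7, against 0.0291%. By title 3 of the 10 genes had no H3K27ac summit among the strongest in any library, against 17.3%, and 1 had an H3K4me1 summit there in all 6, against 26.0%.

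Other lists gave a frame for these values. The median over genes of the mean H3K4me1 percentile was 89.5 for the 10 regulators, 90.7 for 28 further mesendoderm genes, 93.0 for 10 neural regulators, 96.6 for 10 pluripotency genes and 86.7 for all genes. For H3K27ac the medians were 9.34, 29.2, 4.59, 84.8 and 75.2 in the same order. Without summits at ends of other genes the H3K27ac medians were 9.34, 23.9, 4.59, 83.8 and 64.0. By title the H3K4me1 medians were 61.4, 71.6, 65.2, 93.8 and 82.0, and those of H3K27ac 37.8, 52.9, 33.9, 89.0 and 76.1. In the shHNRNPU libraries alone the regulators had 87.9 and 11.6, beside 86.5 and 73.2. No neural regulator and 11 of the 28 further mesendoderm genes had an H3K27ac summit in all 6 libraries on either reading. The further genes with high H3K27ac included LEFTY1 (87.1) and LEFTY2 (84.5), inhibitors of Nodal, TDGF1 (84.9), a Nodal co-receptor, and MSGN1 (90.2), a factor of presomitic mesoderm. Summits at ends of other genes were not removed from these values. CDX2, EVX1, SP5, FOXA1 and DKK1 had no H3K27ac summit in any library. These genes were chosen with earlier results of these data known, and no test was made between lists.

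**Figure D3:**
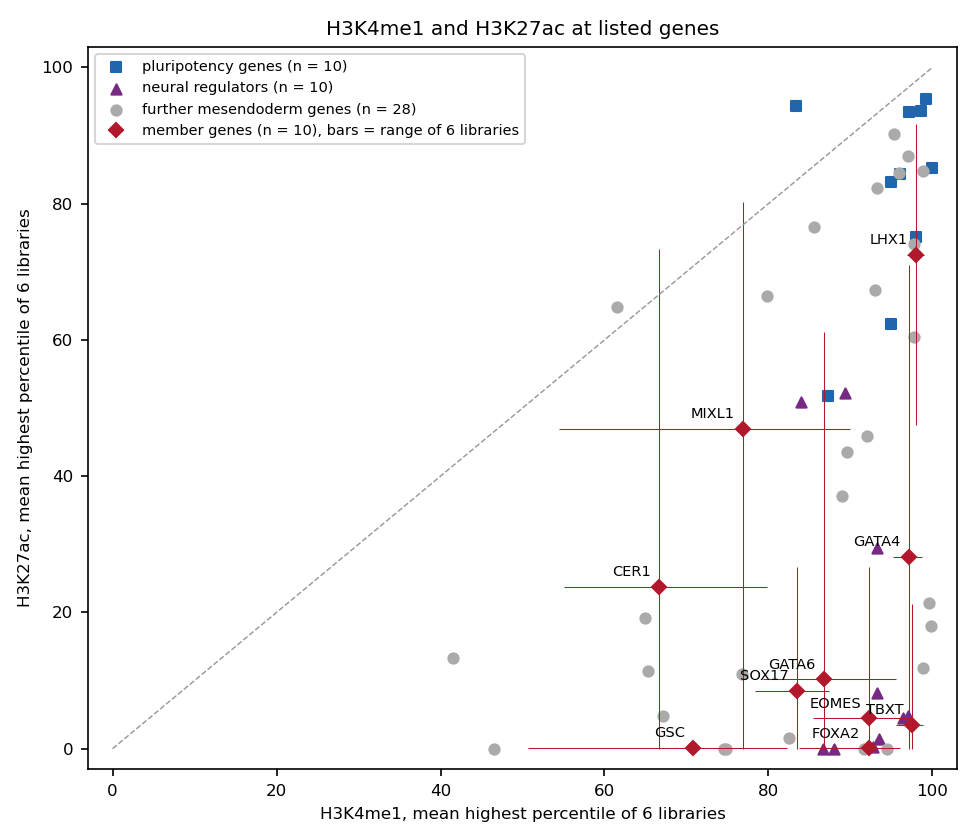
Mean highest percentile over 6 libraries for H3K4me1 (horizontal) and H3K27ac (vertical), 1 point per gene, with the range over libraries for the 10 regulators and a dashed line at equal values. Median H3K27ac values are 9.34 for the regulators and 84.8 for the pluripotency genes.

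HNRNPU was located next. Each of the 10 genes had an HNRNPU summit in both repeats, against 79.8% of all protein-coding genes. The median over genes of the mean percentile was 58.9, beside 74.0 for all genes. Without summits at ends of other genes these medians were 57.8 and 55.9, so the lower value was not seen there. Among the 20000 strongest summits, 7 of 10 genes had one in both repeats, against 67.4%. The deposited list of 400 bp HNRNPU intervals held 29 intervals in the 10 windows, with at least 1 at each gene. Of the 45 summits, 35.6% lay within 1 kb of an end of the gene, compared with 11.3% of H3K4me1, 9.52% of H3K27ac and 25.3% of POLIIS2P summits. These shares pool genes of unlike length and were not computed for all protein-coding genes, so they do not set the 10 genes apart.

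The highest HNRNPU percentile was 89.5 and 89.6 at LHX1, and both repeats had it at the AATF end. Without ends of other genes LHX1 had 6.09 and 35.9. EOMES followed with 62.5 and 78.7, at chr3:27712261-27712265. This is the constant H3K4me1 site 3.71 kb downstream of the gene. GATA4 had 72.7 and 65.0, again at the end of a neighbour, NEIL2, and its strongest H3K4me1 site carried an HNRNPU summit in repeat 1 at 66.2.

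Within 1 kb of a gene end, both repeats had an HNRNPU summit at TBXT, EOMES, SOX17 and CER1. At TBXT they were at 46.8 and 72.5 (chr6:166167894-166167976), inside the promoter window of the second start that RefSeq lists. EOMES had 62.1 and 59.4 near its own upper end, at chr3:27721772-27721862, below its values at the downstream site. SOX17 had 78.5 and 45.1 at chr8:54457868-54458042, 107 and 67 bp from the lower end of the gene. CER1 had 47.5 and 68.9 at chr9:14722714-14722904. FOXA2 had 33.8 and 61.4, at different sites, and both of its sites were present in both repeats.

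At the other genes the repeats did not share a site. GSC had 56.1 at 2.91 kb upstream in repeat 1 and 58.7 at 44 bp inside the start in repeat 2. MIXL1 had 33.2 and 44.0, and only repeat 1 had summits near the start. GATA6 had 1.88 and 49.1. Summits of the repeats within 250 bp of each other existed at 7 of the 10 genes, a count with no share of all genes beside it. With 2 libraries per gene and ranges that overlapped for 8 of 9 neighbouring pairs, the order below LHX1 is not resolved. Of the 50 constant H3K4me1 sites, 18 had an HNRNPU summit of any repeat within 500 bp, and 9 had one of both repeats. A POLIIS2P summit of any library lay there at 25 sites and of every library at 11. An H3K27ac summit of any library lay there at 10 sites. The same shares over constant H3K4me1 sites of the whole genome were not computed, so these counts have no background.

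POLIIS2P had a summit in all 3 libraries at 8 of 10 genes, against 78.4% of all protein-coding genes. The median of the mean percentile over the 10 genes was 69.4, beside 86.4 for all genes. Without summits at ends of other genes these medians were 54.7 and 78.4. Of the 10 genes, 3 were among the 20000 strongest summits in all 3 libraries, against 56.3%. MIXL1 was the highest, with 94.6 in the shHNRNPU#1 library and 86.4 and 91.4 in the shLUC libraries, at 300 to 464 bp inside the start of the gene (chr1:226223964-226224128). The best summits of LHX1 (91.6, 88.1 and 89.1) and GATA4 (88.3, 78.5 and 82.5) were at the AATF and NEIL2 ends. Without them their means fell from 89.6 to 56.9 and from 83.1 to 52.4. EOMES had 78.8, 78.4 and 71.0. GSC had 0, 76.5 and 0 and CER1 had 0, 0 and 40.7, each with summits in a single library.

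**Figure D4:**
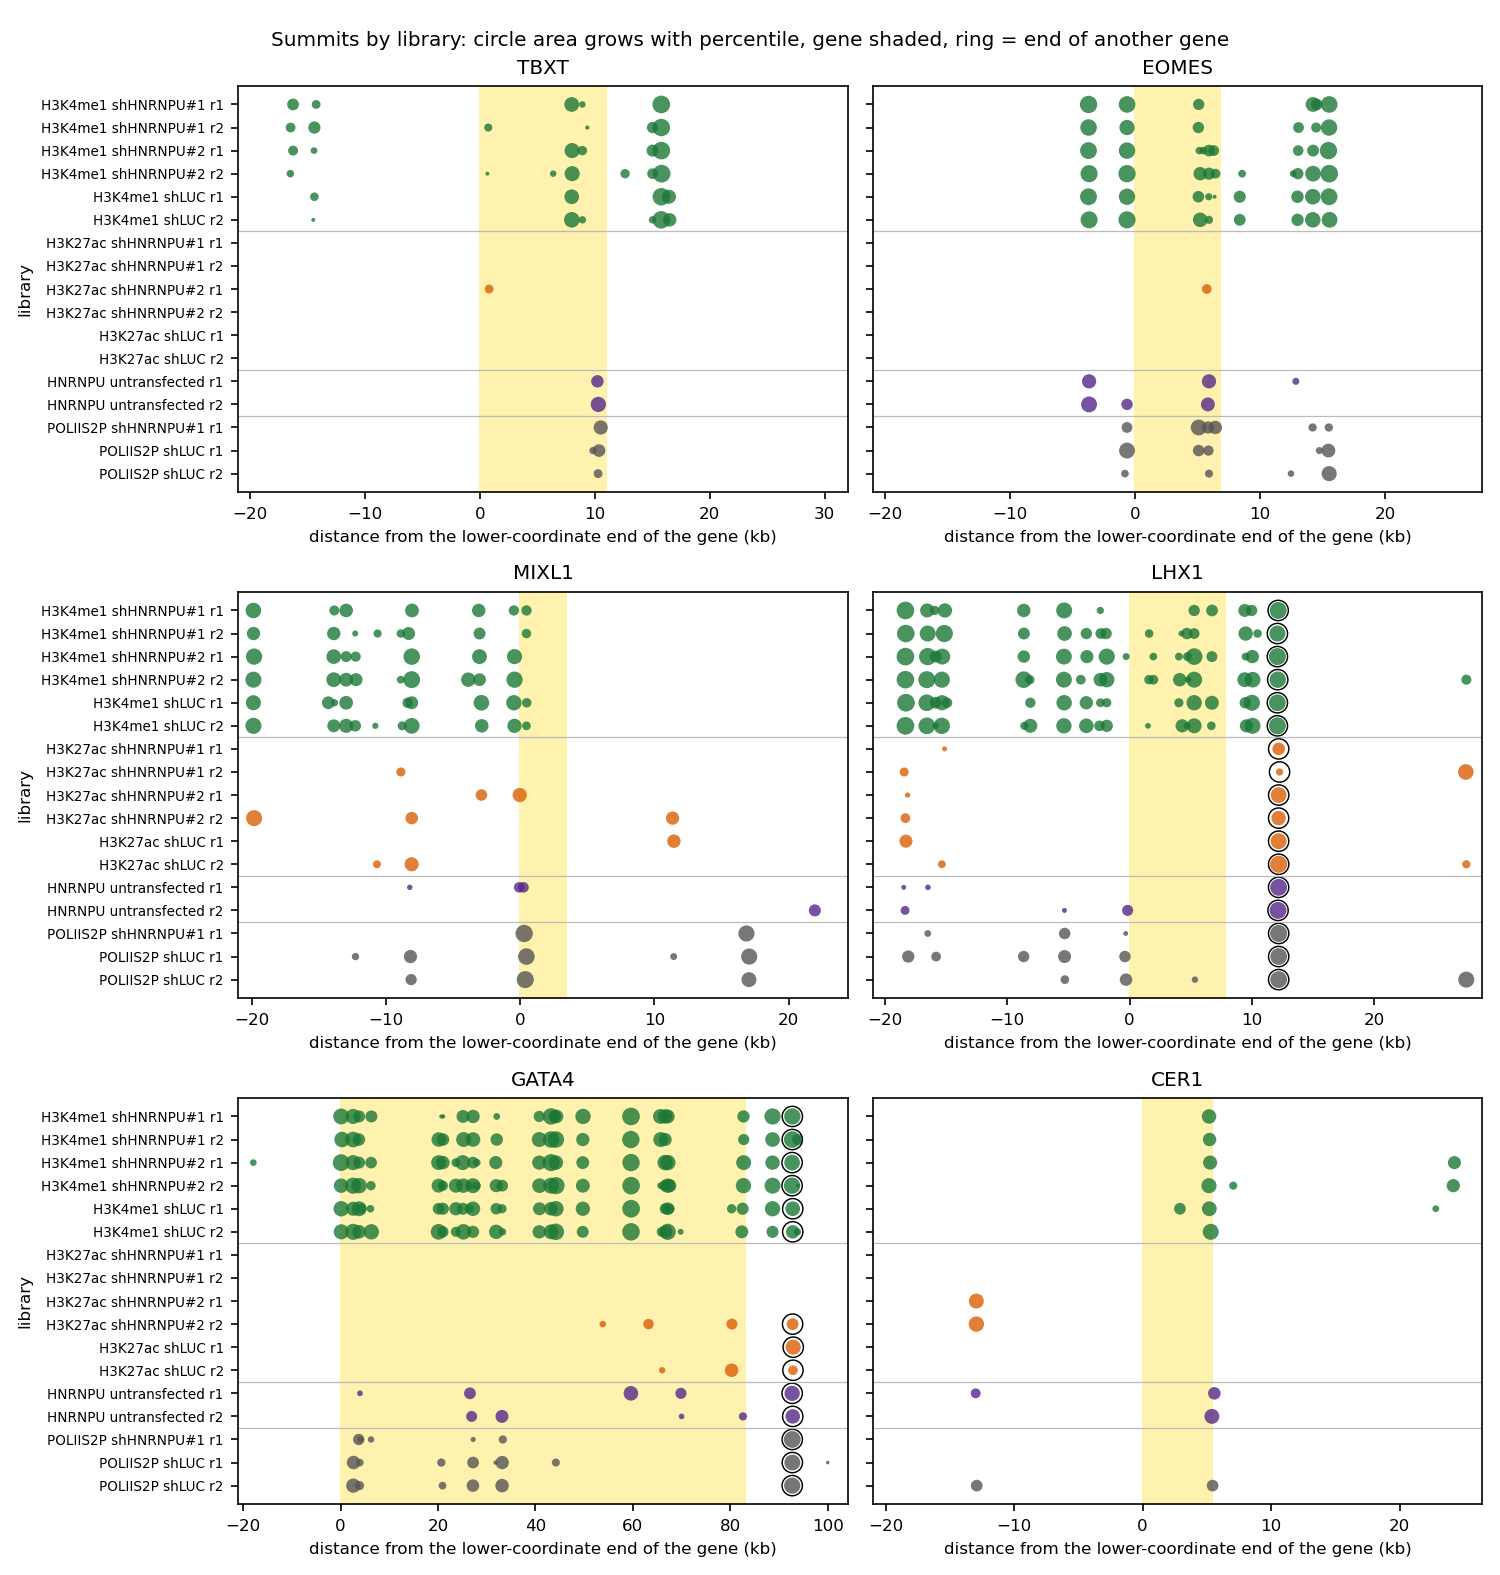
Every summit in the window of 6 genes by library (rows) and distance from the lower-coordinate end of the gene (horizontal, kb). Circle area grows with the percentile, the gene is shaded, and a ring marks a summit within 1 kb of an end of another protein-coding gene, such as the column of ringed circles above LHX1, which is the AATF end. H3K4me1 is green, H3K27ac orange, HNRNPU purple and POLIIS2P grey.

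To ask whether the marks changed when HNRNPU was targeted, the strength of each gene was compared between conditions. Strength is the log2 of list length divided by the rank of the best summit, so 1 unit is a halving of the share of summits that score as high, and 0 means no summit. limma was run over all genes with a summit in any library of the antibody, with Benjamini-Hochberg adjusted p-values. For single genes an exact two-sided permutation test over the 15 assignments of libraries was added, whose smallest possible p is 0.0667, so it cannot pass 0.05.

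For H3K4me1 none of the 10 genes was called, against 0% (0 of 18872) of all genes (limma, 1245 at an unadjusted p under 0.05). The differences ran from -0.95 at GATA6 (SE 0.60, limma adjusted p = 0.830) to 0.72 at EOMES (SE 0.65, limma adjusted p = 0.894). Both moved with single libraries, GATA6 to -1.72 without shLUC repeat 2 and -0.18 without shLUC repeat 1, and EOMES to 0.34 without shHNRNPU#2 repeat 2 and 1.18 without shHNRNPU#1 repeat 2. TBXT was 0.70 higher in shHNRNPU (SE 0.61) and LHX1 0.86 lower (SE 0.56). Of the 10 genes, 4 had higher and 6 lower means in shHNRNPU cells, with a median difference of -0.41 beside -0.02 for all genes. For 0 of the 10 genes were the groups apart, while 7.11% of all genes were higher and 8.19% lower in every shHNRNPU library. At the level of sites, 1 weak TBXT site 16.4 kb downstream (chr6:166141177-166141417, mean percentile 27.8) was present in all 4 shHNRNPU and no shLUC libraries. A TBXT site at chr6:166174119-166174181 (mean 58.2) and a FOXA2 site (mean 12.0) were present in both shLUC libraries alone. Genome-wide 0.577% of H3K4me1 sites were of the first kind and 1.28% of the second, against 1 and 2 of 150 here. For H3K27ac 0 of 25 sites were of either kind, against 0.227% and 1.93% genome-wide.

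For H3K27ac none of the 10 genes was called either, against 0% (0 of 18573) of all genes (limma, 1026 at an unadjusted p under 0.05). The median of all genes was itself lower by 0.31 in the shHNRNPU libraries, and the median of the 10 genes was 0.04. This shift has not been subtracted from the differences below. With shHNRNPU#1 alone, which had the shortest lists, the median of all genes was -0.67, and with shHNRNPU#2 alone it was -0.004. GATA4 was 1.29 lower (SE 0.39, limma adjusted p = 0.810, exact permutation p = 0.0667, the smallest possible), with 0, 0, 0 and 42.1 in shHNRNPU against 71.0 and 55.9 in shLUC libraries as highest percentiles. Without shLUC repeat 1 it was -0.98. LHX1 was 1.28 lower (SE 0.77, limma adjusted p = 0.887, exact permutation p = 0.133), with 47.6, 75.8, 77.3 and 63.6 against 78.9 and 91.7. Without shLUC repeat 2 it was -0.60, and without shLUC repeat 1 -1.95. These were the 2 genes whose groups did not overlap, both lower in shHNRNPU cells, as were 11.3% of all genes, and 2.08% of all genes were higher. Without summits at ends of other genes, a choice made after seeing the data, the groups overlapped at both genes and the differences were -0.44 at GATA4 and -0.01 at LHX1. CER1 was 0.90 higher (SE 0.58, limma adjusted p = 0.887), with summits in the shHNRNPU#2 libraries alone. With the 20000 strongest summits of every list, so at equal length, the differences were -0.07 at GATA4, -0.69 at LHX1 and 0 at CER1, which then had no summit, and the median of all genes was 0.000776.

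For POLIIS2P there was 1 shHNRNPU#1 library, so the comparison describes 3 libraries and has no replicate check of the shRNA. A limma fit, which must assume that the lone library varies like the shLUC pair, passed 0% (0 of 17062) of all genes (1767 at an unadjusted p under 0.05), and its lack of calls says nothing of how stable the signal was. MIXL1 was 1.01 higher in the shHNRNPU#1 library, and GSC was 1.04 lower, its only summits being in shLUC repeat 1. The shHNRNPU#1 library was above both shLUC libraries at 6 genes, and below both at SOX17. Among all genes 32.1% were above and 39.5% below both. LHX1 and GATA4 were among the 6, and without ends of other genes their differences turned to -0.97 and -0.61.

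The outcome depended on the names of the shLUC libraries. With the antibody of the titles, 9 of the 10 genes were called for H3K4me1, all higher in shHNRNPU cells. MIXL1 was the exception (limma adjusted p = 0.161). Of all genes 53.5% were called in either direction, 6542 higher and 3628 lower of 19009. For H3K27ac, 8 of the 10 were called, all lower, and MIXL1 and CER1 were the exceptions (limma adjusted p = 0.175 and 0.208). Of all genes 45.1% were called in either direction, 1905 higher and 6642 lower of 18972. TBXT, for example, had an H3K4me1 strength of 5.70 in shHNRNPU and 0 in shLUC libraries on this reading, a difference of 5.70 (SE 0.64), because the shLUC lists titled H3K4me1 held no summit in its window. On the reading by peak names the shLUC strength was 5.00.

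**Figure D5:**
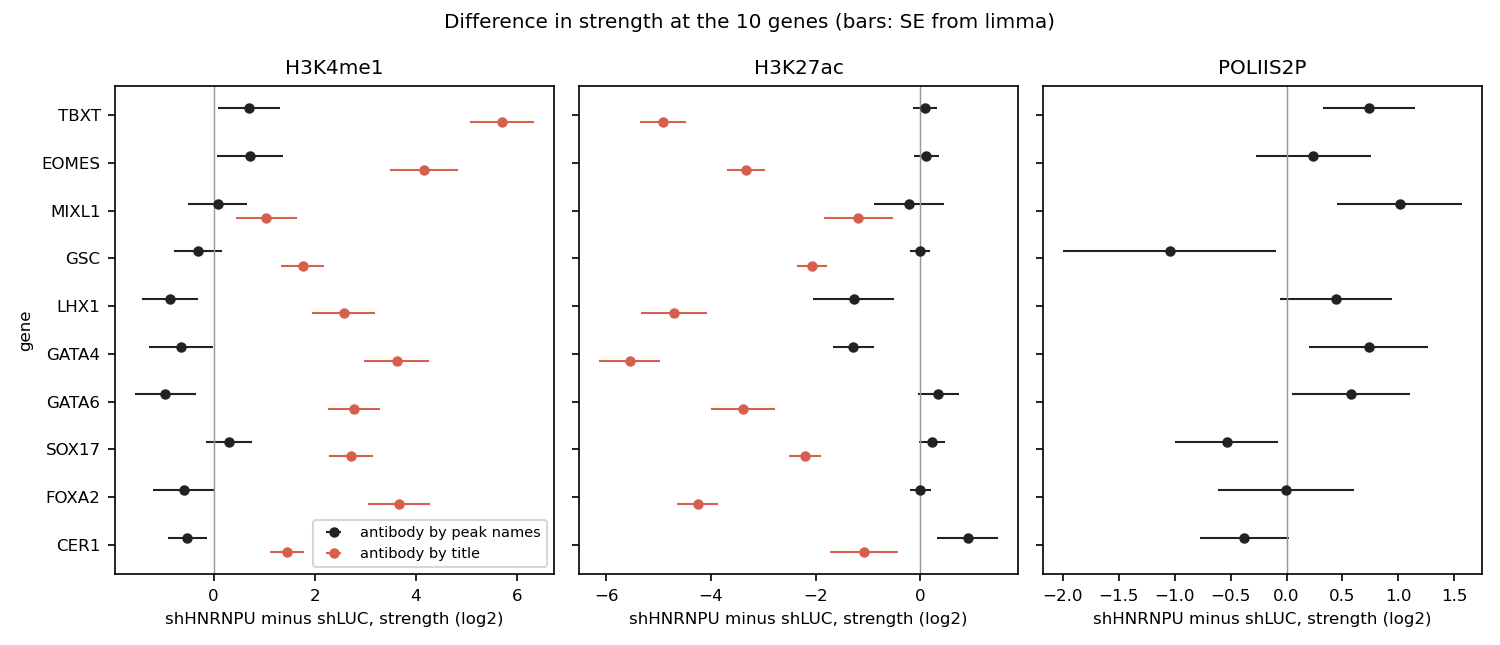
Difference in strength (shHNRNPU minus shLUC, log2) at each gene with the SE from limma as bars (for POLIIS2P the SE rests on the shLUC pair), for H3K4me1, H3K27ac and POLIIS2P, with the antibody of the shLUC libraries by peak names (black) or by title (red). By peak names the H3K4me1 differences lie between -0.95 and 0.72, and by title 9 of 10 are called.

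The 28 further mesendoderm genes gave no call by peak names for H3K4me1 or H3K27ac (limma, 0 and 1 gene at an unadjusted p under 0.05). By title 21 of 28 were called higher for H3K4me1, against 6542 of 19009 among all genes. For H3K27ac 20 of 28 were called lower by title, against 6642 of 18972. By peak names their median differences were -0.07 for H3K4me1, 0.08 for H3K27ac (23 genes tested) and -0.13 for POLIIS2P (25 tested). The widest H3K4me1 differences were at OTX2 (-1.64, SE 0.80), CDX2 (-1.25, SE 0.58), FST (0.79, SE 0.54), NODAL (-0.77, SE 0.50), FOXH1 (0.76) and APLNR (0.68). For H3K27ac they were at LEFTY1 (-1.25), FOXH1 (-1.19), CXCR4 (-1.16), TDGF1 (-1.16), KDR (-1.13) and LEFTY2 (-0.92), each with a lower mean in shHNRNPU libraries. For POLIIS2P they were at TDGF1 (-2.32), CDX2 (2.25), LEFTY1 (-1.76), FOXA1 (-1.59), CXCR4 (1.42) and FGF8 (-1.26). The 10 neural regulators and 10 pluripotency genes had no call by peak names for the histone marks (limma, 1 gene of each list at an unadjusted p under 0.05), with medians of -0.23 and -0.44 for H3K4me1, -0.16 and -0.20 for H3K27ac and 0.28 and -0.34 for POLIIS2P. By title 8 of the 10 neural regulators were called higher for H3K4me1 and 9 lower for H3K27ac. Of the 10 pluripotency genes 6 were called higher and 1 lower for H3K4me1, and 5 lower for H3K27ac. Among all genes 6542 of 19009 were called higher and 3628 lower for H3K4me1, and 6642 of 18972 lower for H3K27ac.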

How the data were processed

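The authors deposited 1 summit list per library, whose score is −log10 of a p-value or q-value within that library, and 1 list of 48095 HNRNPU intervals of 400 bp, used for positions only. The submitters' processing notes name cutadapt, Bowtie2, SAMtools, MACS2, deepTools and hg38, without versions. The paper listed with the series describes other cells, so its methods were not used. Scores are comparable only within a list, so percentiles and strengths were computed from ranks. Groups came from sample titles, and the antibody of the 4 shLUC histone libraries from peak names, with titles as an alternative. Differences were tested with limma 3.58.1 in R 4.3.3 (trend, threshold 0.05) on all genes with a summit (for POLIIS2P the lone shHNRNPU#1 library is assumed to vary like shLUC), and the script was tested on simulated data. Python 3.11.15 and pandas 2.3.3 built the tables. The 10 genes were named throughout, with the 6 further mesendoderm genes of widest difference per comparison. Genes were matched to RefSeq by symbol, TDGF1 as CRIPTO. The members, lists and tests were chosen with earlier results of these data known. Other windows (5 and 50 kb), the 20000 strongest summits, a score of at least 10, no filter, percentiles, each shRNA alone, a replicate block and single libraries left out were tried. Depth is unknown, so no counting interval is given.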

Additional observations from a re-analysis of the deposited data

Results flagged for a closer look

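The highest percentile among the 4 shHNRNPU libraries of an antibody stood apart in 1 library at 5 genes, all for H3K27ac, among 19 groups of 4 libraries examined. These were shHNRNPU#2 repeat 1 at TBXT (21.2), EOMES (26.6) and FOXA2 (0.157), shHNRNPU#2 repeat 2 at GATA4 (42.1) and shHNRNPU#1 repeat 1 at GATA6 (61.2). In each the other 3 libraries had no summit, so the gap is the whole range by construction, whatever the size of the value. The rate of about 1 in 20 groups that chance flags holds for values without such a floor and is no yardstick here.

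The shRNAs went opposite ways from the shLUC mean at 3 points, a difference that was not tested. For H3K4me1 at MIXL1, shHNRNPU#1 was 13.7 percentile points below and shHNRNPU#2 9.21 above, 22.9 points apart. At GSC the H3K4me1 values were 16.8 below and 3.68 above, 20.5 points apart. For H3K27ac at MIXL1 they were 46.7 below and 13.3 above, 60.0 points apart.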

How the results depend on the processing

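No gene of the 10 was called for a histone mark by peak names in any setting tried, with adjusted p-values of 0.448 to 1 for H3K4me1 and 0.358 to 1 for H3K27ac (limma). POLIIS2P, with 1 shHNRNPU#1 library, has no such check. The number of all genes called was 0 and moved to 2 (50 kb), 1 (shHNRNPU#2 alone) and 10170 (titles) for H3K4me1, to 16 (no filter) and 8547 (titles) for H3K27ac, and to 3 (50 kb) and 171 (no filter) for POLIIS2P. A score of at least 10 left 1 gene, LHX1, with HNRNPU in both repeats. Its best HNRNPU summits lay at the AATF end, and no share of all genes is given beside this count. Several differences changed sign, and the cause was not tested. By title the H3K4me1 differences were 1.76 at GSC, 2.58 at LHX1, 3.62 at GATA4, 2.78 at GATA6, 3.67 at FOXA2 and 1.46 at CER1, and those of H3K27ac -4.91 at TBXT, -3.33 at EOMES, -3.39 at GATA6, -2.20 at SOX17, -4.26 at FOXA2 and -1.07 at CER1. With 5 kb, H3K4me1 gave -0.16 at MIXL1, 0.064 at GSC and -0.50 at SOX17, H3K27ac 0.35 at MIXL1, and POLIIS2P -0.61 at GATA4. With 50 kb, H3K4me1 gave 0.46 at FOXA2, H3K27ac -1.23 at EOMES, 0.24 at GSC, -0.19 at SOX17 and -1.45 at CER1, and POLIIS2P -0.13 at GATA4. With shHNRNPU#1 alone MIXL1 H3K4me1 was -0.65, and with shHNRNPU#2 alone H3K4me1 was 0.17 at GSC and 0.11 at FOXA2 and H3K27ac 0.62 at MIXL1. On percentiles, MIXL1 H3K4me1 was -2.22 and FOXA2 POLIIS2P 3.67 points. The 20000 strongest summits gave 0.064 for MIXL1 H3K27ac, and a score of at least 10 gave -0.0014 for EOMES POLIIS2P. Without ends of other genes, chosen after seeing the data, SOX17 H3K4me1 was -0.26, and POLIIS2P -0.97 at LHX1 and -0.61 at GATA4. Leaving out 1 library gave 0 calls for H3K4me1 and H3K27ac, and values from -0.25 to 0.47 (MIXL1) and -0.73 to 0.12 (GSC) for H3K4me1, -0.66 to 0.12 (MIXL1) for H3K27ac and -0.58 to 0.57 (FOXA2) for POLIIS2P, the last without a test. Values that kept their sign also moved, as GATA4 H3K4me1 did from -1.21 to -0.08. The replicate block gave 0 calls for both histone marks and changed no other call. Same-numbered libraries deviated with correlations of -0.0251 to 0.0170, so no pairing by repeat number was visible in strength. These values cannot tell whether such libraries were made together.

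With 2 shLUC libraries per mark and unknown depth, small differences were not detectable. The labels did not settle the identity of the 4 shLUC histone libraries, and every shHNRNPU comparison of a histone mark depends on it. The lengths of their lists are given above, and the identity was not tested.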
